A study of Mus musculus with 7 samples.

Results

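The mRNAs of 33 carriers, enzymes and regulators that bring pyruvate into the mitochondrial matrix and run the tricarboxylic acid (TCA) cycle were examined in the retinal pigment epithelium (RPE) of aged mice. The genes were taken by symbol from a list of the pathway that sets no limit on any measured value. They are 33 of the 52740 gene identifiers in the count table, of which 28835 had a count in at least 1 library and 16990 passed the filter on low counts. All 33 passed that filter.

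The study compared RPE of mice without LC3b, encoded by *Map1lc3b*, with RPE of wild-type (WT) mice to learn which transcripts differ at an advanced age. LC3b is a small protein that is joined to lipid on autophagosomes and on phagosomes that carry shed photoreceptor tips. The WT group held 3 females (F1, F2 and F3) and 1 male (M1) of C57BL6/J, and the LC3b-/- group held 2 females (F1 and F3) and 1 male (M) of the strain B6;129P2-Map1Lc3btm1Mrab/J. All mice were 24 months old, and each library is labelled with the name of 1 mouse. The gene was lost from the germ line, so every cell type lacked it, and the gene and the strain background cannot be told apart. A number in the names of the mice, of unstated meaning, differs between the genotypes and cannot be told apart from them. Cells were loosened from the eyecup with hyaluronidase and trypsin after cornea, lens and ciliary body were taken away.

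The libraries held 24495952 to 35616134 counts. *Map1lc3b* itself was at 104 to 130 CPM (counts scaled to a common library size) in WT and at 6.76 to 8.33 CPM in LC3b-/-, a log2 fold change of -3.98 ± 0.15 (SE; edgeR quasi-likelihood test, Benjamini-Hochberg adjusted p = 0.000186). Of the 10 RPE markers *Ttr* was at 6057 to 18326 CPM and *Rpe65* at 878 to 3968 CPM over the 7 libraries, while *Best1* was at 0.861 to 1.71 CPM. The summed level of the 10 was lower in LC3b-/- (10263 to 20846 CPM) than in WT (21802 to 33715 CPM), with 9 of 10 lower. The 7 markers of ocular surface epithelium went the other way, with 2294 to 16168 CPM in LC3b-/- and 5.09 to 1338 CPM in WT, and all 7 were higher. Markers of endothelium summed to 475 to 524 CPM in LC3b-/- and 121 to 402 CPM in WT. The sums for 12 photoreceptor markers (99.1 to 7503 CPM and 276 to 22085 CPM), 4 Mueller glia markers, 5 fibroblast markers, 7 macrophage markers, 6 muscle markers and 4 erythrocyte markers overlapped between the genotypes, and 3 lens markers stayed at or below 0.351 CPM. The part of these cell types in the differences given here was not tested. In such bulk samples, fewer cells of a type and less RNA per cell cannot be told apart.

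Pyruvate made by glycolysis enters mitochondria through a carrier and is either turned into acetyl-CoA by the pyruvate dehydrogenase complex or carboxylated to oxaloacetate. Kinases switch the dehydrogenase complex off by phosphorylation and phosphatases switch it on again. Acetyl-CoA, also the product of fatty acid oxidation, joins oxaloacetate to form citrate, and the cycle then hands electrons to the respiratory chain as NADH and, at complex II, through FAD. The RPE is known for burning fatty acids from ingested photoreceptor tips and lactate from the retina in its mitochondria, while it passes most glucose on to photoreceptors.

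None of the 33 mRNAs was called between the genotypes, where a call asked for a 1.5-fold difference or more together with an adjusted p under 0.05 (edgeR, Benjamini-Hochberg over 16990 genes). In all genes tested 40 were called, or 0.235%. At an unadjusted p under 0.05 there were 6 of 33, with 3 lower in LC3b-/- (*Mpc1*, *Sdhc* and *Sdhd*) and 3 higher (*Pdk1*, *Pdp1* and *Glud1*). The same limit was met by 10.6% of all genes in the lower and 13.5% in the higher direction, and 3 of 33 is 9.09%, below both. The count of 6 fell to 2 without LC3b-/- F1 and to 3 without WT F3 or without WT M1. The share of all genes at this limit was not counted in these smaller fits, so the fall cannot be read as particular to the members. The study itself had used DESeq2, with the same limits on fold change and adjusted p. Run here as an alternative, DESeq2 called 2 members (*Sdhc* and *Pdp1*), while it called 10.7% of all genes, and limma voom called 0 members.

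Mean fold changes leaned to the lower side. In LC3b-/- 24 of 33 members (72.7%) had a lower fitted level and 9 a higher one, where 48.8% of all genes tested were lower. The median log2 fold change was -0.11, against 0.01 over all genes tested. Single values ran from -0.57 (*Sdhc*) to 0.81 (*Pdp1*). The LC3b-/- libraries all lay below the WT ones for 3 members, *Sdha*, *Sdhc* and *Sdhd*, or 9.09%, where 10.3% of all genes did so. For 2 members, *Pdk1* and *Pdp1*, or 6.06%, every LC3b-/- library lay above, where 12.0% of all genes did so. The plot of fold changes gives every member with its standard error, and the plot by library shows that the genotypes overlapped for the other 28.

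**Figure D1:**
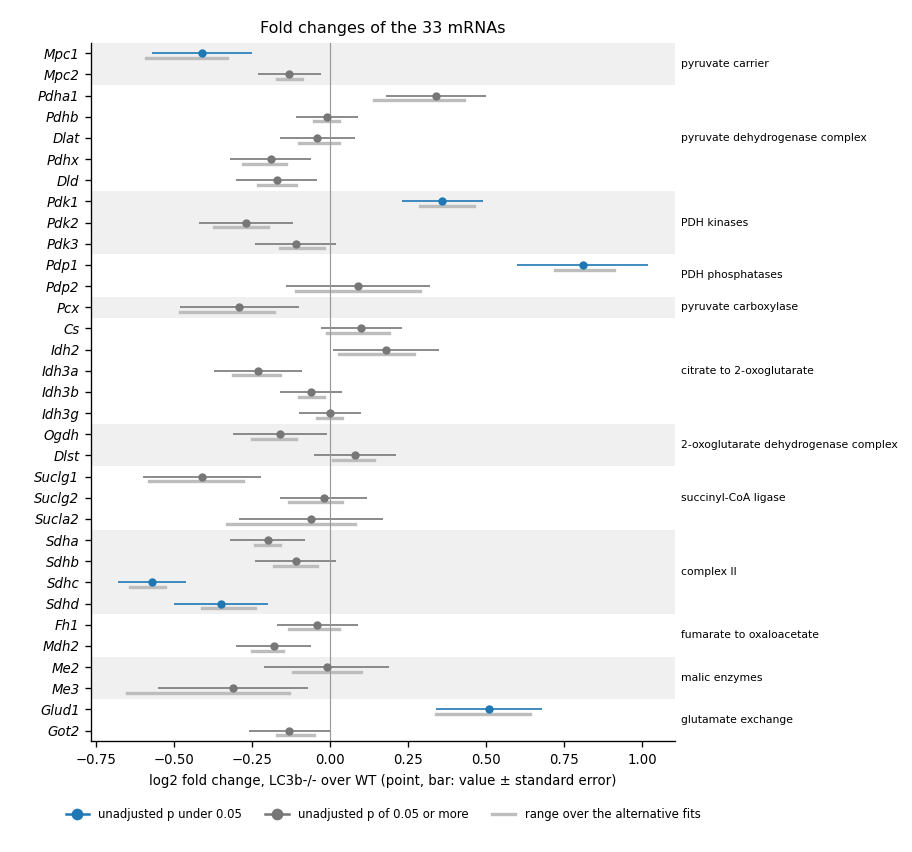
Log2 fold changes of the 33 mRNAs, LC3b-/- (n = 3) over WT (n = 4), from the edgeR fit, grouped by role. Points and bars give the value and its standard error, blue marks an unadjusted p under 0.05, and the grey line under each point spans the alternative fits. The lowest value is that of *Sdhc* (-0.57) and the highest that of *Pdp1* (0.81).

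**Figure D2:**
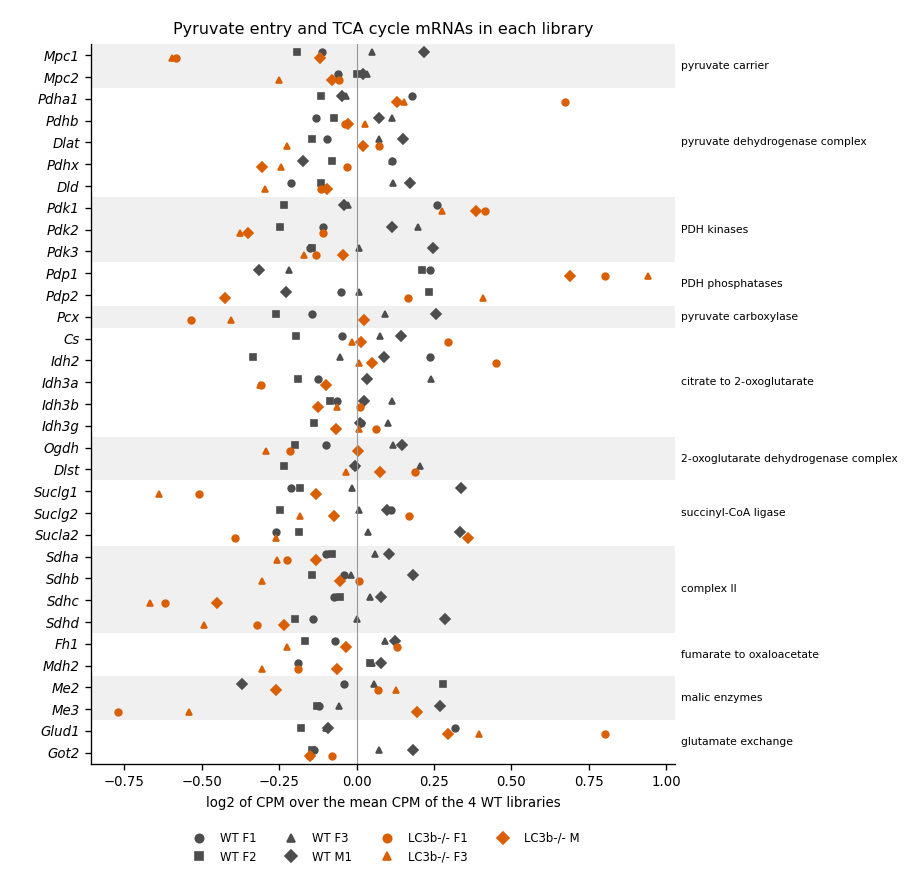
Level of each of the 33 mRNAs in each library, as log2 of its CPM over the mean CPM of the 4 WT libraries. Grey symbols are WT, orange symbols LC3b-/-, and the shape gives the mouse. Orange symbols stand wholly to the left of grey ones for *Sdha*, *Sdhc* and *Sdhd* and wholly to the right for *Pdk1* and *Pdp1*.

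Where values are given by library, they follow the order F1, F2, F3, M1 for WT and F1, F3, M for LC3b-/-, and every log2 fold change is given ± SE. The mitochondrial pyruvate carrier is built from *Mpc1* and *Mpc2*. *Mpc1* (ENSMUSG00000023861, GRCm39 chr17:8501736-8516498, plus strand) was at 78.9, 74.7, 88.3 and 99.2 CPM in WT and at 57, 56.4 and 78.6 CPM in LC3b-/-. Both LC3b-/- females lay under all WT libraries, while the LC3b-/- male lay among the WT females. The mean was 85.3 ± 10.9 CPM (SD, n = 4) in WT and 64.0 ± 12.6 CPM (SD, n = 3) in LC3b-/-, a log2 fold change of -0.41 ± 0.16 (SE; edgeR adjusted p = 0.185). *Mpc2* had a log2 fold change of -0.13 ± 0.10, with 41.3 to 44.0 CPM in WT and 36.2 to 41.4 CPM in LC3b-/-.

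The pyruvate dehydrogenase complex joins the E1 subunits *Pdha1* and *Pdhb*, the acetyltransferase *Dlat*, the binding protein *Pdhx* and the dihydrolipoamide dehydrogenase *Dld*. None of these 5 mRNAs had an unadjusted p under 0.05, and all 5 overlapped between the genotypes. Log2 fold changes of *Pdhb*, *Dlat*, *Pdhx* and *Dld* ran from -0.19 to -0.01. *Pdha1* went the other way, at 102 to 125 CPM in WT and 121 to 176 CPM in LC3b-/-, with a log2 fold change of 0.34 ± 0.16 (SE; edgeR adjusted p = 0.249). Its highest level was in LC3b-/- F1, and without that library the log2 fold change was 0.14. LC3b-/- F1 was also the library with the lowest RPE marker sum (10263 CPM) and the highest ocular surface sum (16168 CPM).

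Of the 3 members that are kinases and inactivate the complex, *Pdk1* had a higher mean in LC3b-/- and *Pdk2* and *Pdk3* had lower ones. *Pdk1* (ENSMUSG00000006494, GRCm39 chr2:71703488-71734202, plus strand) was at 41.0, 29.1, 33.6 and 33.3 CPM in WT and at 45.7, 41.5 and 44.7 CPM in LC3b-/-. The groups did not overlap, though WT F1 came close to the lowest LC3b-/- library. The log2 fold change was 0.36 ± 0.13 (SE; edgeR adjusted p = 0.169). *Pdk2*, which had the highest level per length of the 3, was at 130.0 to 177 CPM in WT and 119 to 143 CPM in LC3b-/-, with a log2 fold change of -0.27 ± 0.15 (SE; edgeR adjusted p = 0.300). *Pdk3* had a log2 fold change of -0.11 ± 0.13. A further kinase, *Pdk4*, was not among the members, and its log2 fold change was -0.29 ± 0.26 with overlap between the genotypes.

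The phosphatase *Pdp1*, which reactivates the complex, had the largest fold change of the 33. *Pdp1* (ENSMUSG00000049225, GRCm39 chr4:11957712-11966468, minus strand) was at 6.32, 6.21, 4.61 and 4.31 CPM in WT and at 9.34, 10.3 and 8.65 CPM in LC3b-/-. Every LC3b-/- library was above every WT library, and the mean was 1.76-fold that of WT. The log2 fold change was 0.81 ± 0.21 (SE; edgeR adjusted p = 0.0990), short of the threshold, while DESeq2 gave 0.80 with an adjusted p of 0.00711. Over the alternative fits the log2 fold change of *Pdp1* ran from 0.72 to 0.91 and its adjusted p from 0.00711 to 0.286. *Pdp1* was also the member with the lowest level per length. Its relative *Pdp2* had a log2 fold change of 0.09 ± 0.23, with 7.92 to 10.9 CPM in WT and 6.91 to 12.3 CPM in LC3b-/-.

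Ratios within a library do not depend on how libraries are scaled, so 7 pairs of isoforms or alternative steps were compared this way. The log2 ratio of *Pdk1* to *Pdk2* was -1.80, -2.16, -2.40 and -2.33 in WT and -1.64, -1.52 and -1.43 in LC3b-/-. The groups did not overlap and differed by 0.64 on the log2 scale (exact two-sided permutation test over 35 splits, p = 0.0571, adjusted over 7 pairs 0.200). The log2 ratio of *Pdp1* to *Pdp2* was -0.50, -0.80, -1.02 and -0.88 in WT and -0.15, -0.27 and 0.32 in LC3b-/-. These groups did not overlap either and differed by 0.77 (exact permutation p = 0.0286, the smallest that 4 against 3 allows, adjusted 0.200). So the mRNA of a kinase and that of a phosphatase, enzymes of opposite action, were both higher relative to their isoforms in every LC3b-/- library, and neither ratio passed the correction. The other 5 ratios, *Mpc1* to *Mpc2* (difference -0.29), *Pcx* to *Pdha1* (-0.61), *Idh2* to *Idh3a* (0.41), *Sucla2* to *Suclg2* (-0.06) and *Me2* to *Me3* (0.36), overlapped between the genotypes. Without LC3b-/- F1 these differences were -0.18, -0.32, 0.24, 0.18 and 0.12 in the same order, and without LC3b-/- M they were -0.43, -0.87, 0.54, -0.31 and 0.76, so their size rested on these libraries. Among females alone 5 of the 7 ratios did not overlap, as did 5 without LC3b-/- M, where 3 or 4 WT libraries stand against 2. Groups of fewer libraries separate more easily, so these counts cannot be set against that from all 7 libraries.

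**Figure D3:**
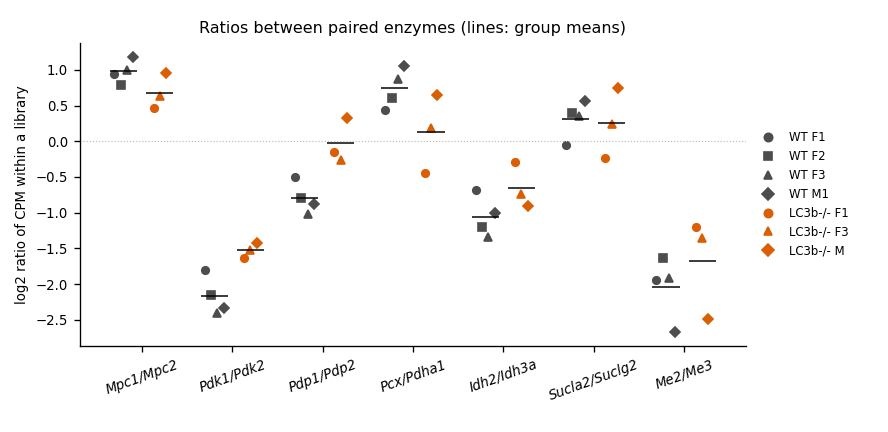
Log2 ratio of CPM between 2 mRNAs of a library, for 7 pairs. Each symbol is a library, grey for WT and orange for LC3b-/-, and the short lines are group means. The genotypes stand apart for *Pdk1*/*Pdk2* and *Pdp1*/*Pdp2*, by 0.64 and 0.77, and overlap for the other pairs.

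Pyruvate carboxylase, *Pcx*, which feeds oxaloacetate into the cycle, was at 156 to 223 CPM in WT and 129 to 190.0 CPM in LC3b-/- (log2 fold change -0.29 ± 0.19). The steps from citrate to 2-oxoglutarate run through citrate synthase (*Cs*), the NADP-linked *Idh2* and the NAD-linked isocitrate dehydrogenase made of *Idh3a*, *Idh3b* and *Idh3g*. All 5 overlapped between the genotypes, with log2 fold changes from -0.23 (*Idh3a*) to 0.18 (*Idh2*), and the means of *Idh3g* were almost equal (67.4 ± 4.61 CPM in WT and 67.5 ± 3.00 CPM in LC3b-/-). The 2-oxoglutarate dehydrogenase complex shares *Dld* with pyruvate dehydrogenase, and its own E1 and E2, *Ogdh* and *Dlst*, had log2 fold changes of -0.16 ± 0.15 and 0.08 ± 0.13.

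Succinyl-CoA ligase makes succinate and a nucleoside triphosphate from an alpha subunit, *Suclg1*, and either of the beta subunits *Suclg2* (GTP-forming) and *Sucla2* (ATP-forming). The shared alpha subunit had the lower values, at 88.9 to 130.0 CPM in WT and 66.1 to 94.0 CPM in LC3b-/-, a log2 fold change of -0.41 ± 0.19 (edgeR adjusted p = 0.225). The beta subunits had log2 fold changes of -0.02 (*Suclg2*) and -0.06 (*Sucla2*). *Sucla2* was as high in the LC3b-/- male (175 CPM) as in the WT male (172 CPM), while the females were at 114 to 140.0 CPM in WT and at 104 and 114 CPM in LC3b-/-.

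Complex II, succinate dehydrogenase, is the enzyme that belongs to both the cycle and the respiratory chain. *Sdha* carries the FAD, *Sdhb* the iron-sulfur clusters, and *Sdhc* and *Sdhd* anchor the enzyme in the inner membrane and bind ubiquinone. All 4 subunit mRNAs had a lower mean in LC3b-/-, a direction that held in the 16 alternative fits, and 3 of them did not overlap between the genotypes. The study itself had picked out subunits of this complex from these libraries, so the count is not independent evidence. The 250 bases before the RefSeq start of 3 of the subunit genes are shown because the 4 subunits had lower means together, and capitals mark motifs found on either strand.

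Sdha: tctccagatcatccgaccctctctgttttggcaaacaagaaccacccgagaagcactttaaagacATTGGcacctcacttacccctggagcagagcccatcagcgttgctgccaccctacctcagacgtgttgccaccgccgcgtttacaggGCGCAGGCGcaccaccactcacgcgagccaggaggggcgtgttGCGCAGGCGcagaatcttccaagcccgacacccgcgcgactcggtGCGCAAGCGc
Sdhb: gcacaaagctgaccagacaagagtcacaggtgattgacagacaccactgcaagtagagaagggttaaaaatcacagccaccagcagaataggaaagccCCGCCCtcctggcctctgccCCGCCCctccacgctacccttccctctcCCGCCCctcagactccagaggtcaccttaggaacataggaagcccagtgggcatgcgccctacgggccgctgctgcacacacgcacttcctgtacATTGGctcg
Sdhd: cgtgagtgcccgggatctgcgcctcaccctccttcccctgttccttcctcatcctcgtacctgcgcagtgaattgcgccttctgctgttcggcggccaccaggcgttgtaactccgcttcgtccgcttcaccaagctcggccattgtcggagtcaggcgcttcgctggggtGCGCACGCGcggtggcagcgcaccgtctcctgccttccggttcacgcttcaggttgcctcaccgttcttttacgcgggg

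These lie, on GRCm38.p6, at chr13:74350241-74350490 on the minus strand (*Sdha*), chr4:140961021-140961270 on the plus strand (*Sdhb*) and chr9:50603850-50604099 on the minus strand (*Sdhd*), and each is written 5′ to 3′ in the direction of its gene. GENCODE vM39 sets the starts of these 3 genes inside the stretches shown, upstream of the RefSeq starts. The same bases stand on GRCm39 at chr13:74498360-74498609, chr4:140688332-140688581 and chr9:50515150-50515399. *Sdha* had 3 matches to GCGCANGCG, the core of the site of nuclear respiratory factor NRF1, and *Sdhd* had 1. *Sdhb* had 3 GC boxes (GGGCGG) and, like *Sdha*, 1 CCAAT. In the full windows of 300 bases, which run 50 bases past the start, GCGCANGCG stood in 5 of the 29 members with a window (*Dld*, *Ogdh*, *Sucla2*, *Sdha* and *Sdhd*), or 17.2%, and in 7.03% of 27025 genes. CCAAT stood in 58.6% of the members and 41.1% of all genes, and GGGCGG in 69.0% and 38.2%. The CRE TGACGTCA stood in 2 members, *Ogdh* and *Mdh2* (6.90%, against 2.03%). The element of the estrogen-related receptors, TCAAGGTCA, stood in *Sdhd* only among the members (3.45%, against 0.466%), on the reverse strand at bases 37 to 45 after the start, here in capitals in its surroundings.

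Sdhd: ggttgtagagTGACCTTGAgccct

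Windows were read on both strands, and a match describes letters, not binding. A gene counted if any of its windows matched. The 27025 genes were not limited to those that passed the filter on low counts, while all members did pass it. The shares of members and of all genes are thus not like for like. The windows of *Pdp1*, *Idh3a*, *Sdhc* and *Me2* were not analysed here.

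*Sdhc* (ENSMUSG00000058076, GRCm39 chr1:170954732-170978223, minus strand) had the lowest log2 fold change of the members. It was at 144, 146, 156 and 160.0 CPM in WT and at 98.8, 95.5 and 111 CPM in LC3b-/-. The gap between the groups was wider than the range within either, and the mean was 151 ± 7.93 CPM (SD, n = 4) in WT and 102 ± 8.42 CPM (SD, n = 3) in LC3b-/-, 0.673 of WT. The log2 fold change was -0.57 ± 0.11 (SE; edgeR adjusted p = 0.0869), which missed both thresholds of a call. DESeq2 gave -0.59 with an adjusted p of 1.82e-05, and the edgeR fit with sex as a covariate gave -0.59 with an adjusted p of 0.0479, both of them calls. DESeq2 called 10.7% of all genes, and this share was not counted with sex as a covariate. Over the other alternatives the log2 fold change of *Sdhc* ran from -0.64 to -0.53, with the highest adjusted p at 0.239.

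*Sdhd* (ENSMUSG00000000171, GRCm39 chr9:50507642-50515195, minus strand) was at 95.1, 91.5, 105 and 128 CPM in WT and at 83.9, 74.6 and 89.1 CPM in LC3b-/-. The groups did not overlap, but the LC3b-/- male came close to the lowest WT female. The log2 fold change was -0.35 ± 0.15 (SE; edgeR adjusted p = 0.204). Without the WT male, which had the highest level, it was -0.24.

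*Sdha* (ENSMUSG00000021577, GRCm39 chr13:74469359-74498436, minus strand) was at 318, 322, 355 and 366 CPM in WT and at 291, 285 and 311 CPM in LC3b-/-. The groups did not overlap, and the mean was 0.869 of WT (log2 fold change -0.20 ± 0.12; edgeR adjusted p = 0.343). *Sdhb* was at 83.9 to 105 CPM in WT and 75.0 to 93.1 CPM in LC3b-/-, which overlapped (log2 fold change -0.11 ± 0.13). The subunits thus differed by unequal amounts. The CPM ratio of *Sdhc* to *Sdha* was 0.451, 0.454, 0.438 and 0.438 in WT and 0.339, 0.335 and 0.358 in LC3b-/-. This ratio and that of *Sdhc* to *Sdhb* (1.53 to 1.74 in WT, 1.06 to 1.27 in LC3b-/-) did not overlap, and that of *Sdhc* to *Sdhd* did (1.26 to 1.59 and 1.18 to 1.28). The 3 ratios were chosen after the values were seen and are given without a test.

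Complex II needs assembly factors, which were read beside its subunits. *Sdhaf1*, which serves the iron-sulfur subunit, was at 20.5, 28.3, 25.3 and 22.3 CPM in WT and at 14.7, 16.2 and 14.6 CPM in LC3b-/-. Its log2 fold change was -0.67 ± 0.15 (SE; edgeR adjusted p = 0.0906). *Sdhaf3*, with a related role, and *Sdhaf4*, which binds *Sdha* on its way into the enzyme, had log2 fold changes of -0.66 ± 0.18 and -0.64 ± 0.19 (SE; edgeR adjusted p = 0.105 and 0.115) and did not overlap between the genotypes either. DESeq2 called these 3 (adjusted p = 0.00267, 0.00802 and 0.0257), where it called 10.7% of all genes. Without LC3b-/- M edgeR called *Sdhaf4* (log2 fold change -0.86, adjusted p = 0.0492), and the share of all genes called in that fit was not counted. *Sdhaf2*, which helps attach FAD to *Sdha*, had a log2 fold change of -0.22 ± 0.13 and overlapped. Of the 8 mRNAs of complex II and its assembly, 8 had a lower mean in LC3b-/-, as did 48.8% of all genes, and 6 did not overlap, where 10.3% of all genes lay below without overlap. These 8 were not a planned list, and the study had already picked out subunits of complex II from these libraries. The counts thus describe the 8 mRNAs and are not independent evidence of an excess. The plot of these genes shows each library.

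**Figure D4:**
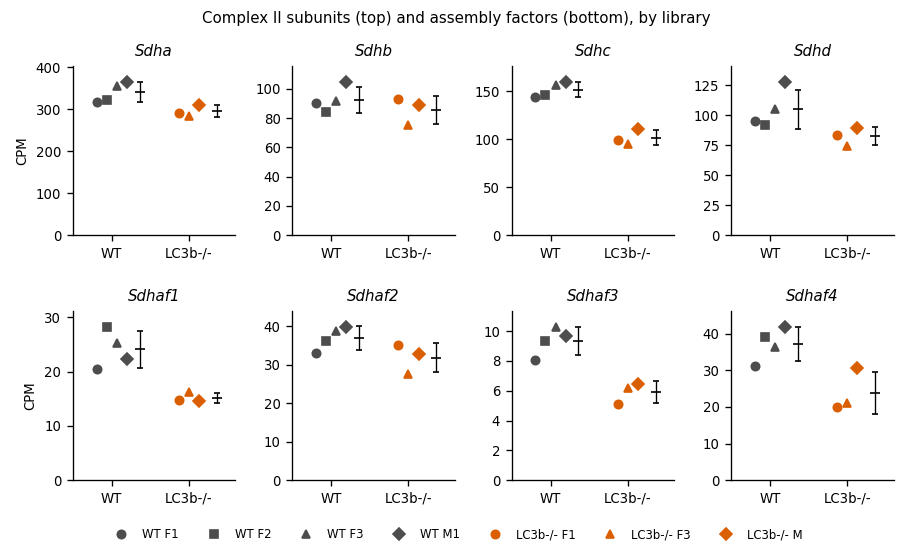
Levels in CPM of the 4 complex II subunits (upper row) and its 4 assembly factors (lower row) in each library, from 0. Symbols are libraries, and the black marks give mean ± SD of 4 WT and 3 LC3b-/- libraries. *Sdha*, *Sdhc*, *Sdhd*, *Sdhaf1*, *Sdhaf3* and *Sdhaf4* show no overlap, and *Sdhb* and *Sdhaf2* do.

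Some members share a start region with a gene on the other strand, and these neighbours were compared in the same fit. *Sdhd* starts 69 bases from *Timm8b*, a chaperone of mitochondrial import, which had a log2 fold change of -0.61 ± 0.16 (SE; edgeR adjusted p = 0.103) with no overlap. *Sdha* starts beside *Ccdc127*, with which it shares 80 bases of exon on opposite strands and whose log2 fold change of -0.21 ± 0.09 was close to that of *Sdha*. In 4 of the 5 such pairs tested, also *Mdh2* with *Styxl1* (-0.88) and *Pdhx* with *Apip* (-0.28), member and neighbour had the same sign, and *Mpc2* with *Dcaf6* (0.01) did not.

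Fumarase (*Fh1*) and malate dehydrogenase (*Mdh2*) close the cycle. *Fh1* had a log2 fold change of -0.04 ± 0.13. *Mdh2* was at 167, 196, 197 and 201 CPM in WT and at 167, 154 and 182 CPM in LC3b-/- (log2 fold change -0.18 ± 0.12). WT F1 thus lay with the LC3b-/- libraries. The mitochondrial malic enzymes turn malate back into pyruvate. *Me2* had a log2 fold change of -0.01 ± 0.20, and *Me3* one of -0.31 ± 0.24 in which the LC3b-/- females (27.7 and 32.5 CPM) lay below all WT libraries (43.3 to 56.9 CPM) and the male (54.1 CPM) did not. The log2 fold change of *Me3* was -0.13 without LC3b-/- F1 and -0.65 without LC3b-/- M.

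Glutamate reaches the cycle through glutamate dehydrogenase (*Glud1*) and the mitochondrial aspartate aminotransferase (*Got2*). *Glud1* (ENSMUSG00000021794, GRCm39 chr14:34032583-34067642, plus strand) was at 90.0, 63.8, 67.4 and 67.7 CPM in WT and at 126, 94.9 and 88.7 CPM in LC3b-/-. All LC3b-/- libraries lay above 3 of the WT libraries, and WT F1 lay above the LC3b-/- male. The log2 fold change was 0.51 ± 0.17 (SE; edgeR adjusted p = 0.148), and 0.34 without LC3b-/- F1. Transcripts of *Glud1* share 379 identical bases with a transcript of *Bcl7c* and near-identical stretches with 2 pseudogenes, so its count is uncertain. The log2 ratio of means was 0.41 when all 4 were summed. Exons of 17 members overlap those of another gene, on the same strand only for *Glud1*, and whether the counting used the strand of reads is not stated in the sources used here. *Got2* was at 216 to 271 CPM in WT and 215 to 226 CPM in LC3b-/- (log2 fold change -0.13 ± 0.13).

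Levels between members were compared as CPM per kilobase of the longest transcript. *Got2* (89.9 ± 10.2, SD, n = 4) and *Sdha* (88.1 ± 6.23) were highest in WT and their ranges overlapped. *Mdh2* (64.4 ± 5.29) and *Idh3b* (57.7 ± 3.69) followed, apart from the upper pair and from *Sdhc*, the next below. The lowest *Idh3b* value in WT met the highest of *Sdhd*, further down the order, both at 54.5. From *Sdhc* (45.9 ± 2.40) down to *Pdha1* (28.9 ± 2.54) every member overlapped its neighbours, and of the 32 neighbouring pairs in the whole order 25 overlapped. Of the regulators all but *Pdk2* (35.4 ± 5.02) stood among the 7 lowest, with *Pdk1* at 6.37 ± 0.924, *Pdk3* at 4.85 ± 0.647, *Pdp2* at 1.61 ± 0.212 and *Pdp1* at 1.04 ± 0.205 CPM per kilobase. The highest member was 86.4 times the lowest. In LC3b-/- the order was much the same, with 9 of the 10 highest shared. *Sdhc* went from rank 5 to rank 11 and *Pdha1* from rank 15 to rank 7. Since the transcripts in use were not resolved, these ranks hold for the chosen length only, and with the canonical transcript 6 of the 10 highest were shared.

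**Figure D5:**
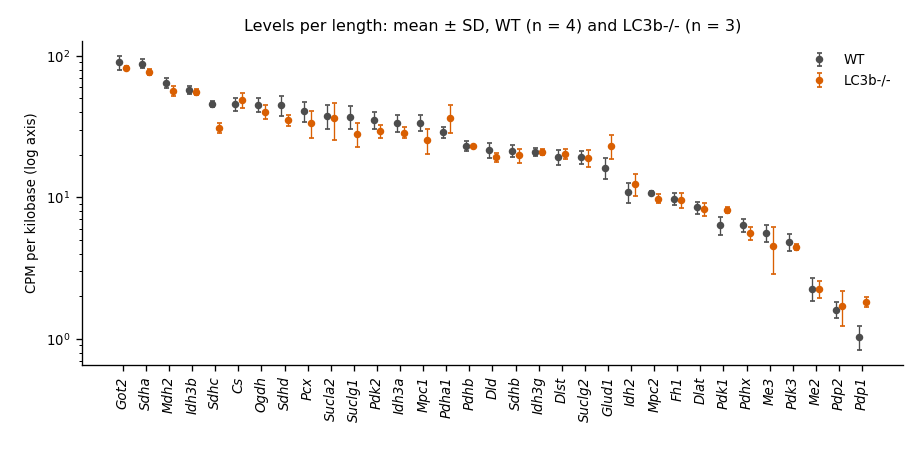
Level per length of the 33 mRNAs in order of the WT mean, as CPM per kilobase of the longest transcript on a log axis. Points and bars are mean ± SD of 4 WT (grey) and 3 LC3b-/- (orange) libraries. Levels run from 89.9 (*Got2*) to 1.04 (*Pdp1*) in WT.

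The male library was the highest of its genotype in both WT and LC3b-/- for 12 of the 33 members, or 36.4%, where 15.6% of all genes had this pattern. These were *Mpc1*, *Dld*, *Pdk3*, *Pcx*, *Ogdh*, *Suclg1*, *Sucla2*, *Sdha*, *Sdhc*, *Sdhd*, *Mdh2* and *Me3*. Each genotype had 1 male, so sex and mouse cannot be told apart. In LC3b-/- the number in the name of the male also differed from that of the females. The RPE marker sum was highest in the male libraries too (33715 CPM in WT and 20846 CPM in LC3b-/-), and its part in this pattern was not tested.

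Of 30 further genes of the pathway 29 passed the filter, with 19 lower (65.5%, against 48.8% of all genes) and 10 higher. Their median log2 fold change was -0.22. At an unadjusted p under 0.05 there were 6 lower (10.6% of all genes were) and 1 higher (13.5% of all genes were), and edgeR called 0 and DESeq2 called 4 (10.7% of all genes). *Sdhaf1*, *Sdhaf3* and *Sdhaf4*, given above, are 3 of the 6 and 3 of the 4. The other 3 lower ones, named after their values were seen, were the cytosolic malate dehydrogenase *Mdh1* (log2 fold change -0.39), the cytosolic malic enzyme *Me1* (-0.63) and the 2-oxoglutarate carrier *Slc25a11* (-0.46). The higher one was *Acss1*, which makes acetyl-CoA from acetate in mitochondria, at 7.20, 5.72, 2.25 and 2.84 CPM in WT and 23.9, 15.8 and 7.27 CPM in LC3b-/-, a log2 fold change of 1.79 ± 0.52 (edgeR adjusted p = 0.115). All 3 LC3b-/- libraries were above those of WT, by a small margin in the male. For comparison, 36 of 37 nuclear subunits of complex I were lower (median -0.30), as were 14 of 15 genes of mitochondrial fatty acid oxidation (median -0.24) and 13 of 16 of glycolysis (median -0.19), where 48.8% of all genes were lower. Below WT without overlap lay 20 of 37, 4 of 15 and 2 of 16 of these, against 10.3% of all genes. The members' median of -0.11 was closer to 0 than those of all 3 lists, and the difference between lists was not tested.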

How the data were processed

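RNA from RPE of 7 mice was made into stranded poly(A) libraries and sequenced as single reads of 100 bases. Per the study's methods, the authors aligned reads to GENCODE vM26 transcripts (GRCm39) with salmon and summed to genes with tximeta. As deposited, each value is an estimated count for a gene that the authors left unscaled and that is a whole number; salmon's options are not given in the sources used here. Groups came from the labels, and all 7 columns were used.

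Counts were fitted with edgeR 4.0.16 (R 4.3.3; TMM factors, filterByExpr, quasi-likelihood F test) on 16990 genes, with Benjamini-Hochberg adjustment over all of them. CPM use TMM library sizes; log2 CPM use a prior count of 2. The SE is the log2 fold change divided by the root of F. Ratios were tested with exact permutation of the 7 libraries (35 splits, smallest p 0.0286; scipy 1.17.1). Libraries held 24495952 to 35616134 counts, and the common biological coefficient of variation over all genes was 0.398. Genes were matched to GENCODE vM39 (51721 of 52740 identifiers), and near-copies were sought with BLAST 2.17.0 (at least 95% identity over 300 bases). Promoter windows are from RefSeq (GRCm38.p6; 29 of 33 members matched). The edgeR, DESeq2 and voom fits were tested on simulated counts, with a spread capped below the common one of these data and with changes larger than those of the members.

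Alternatives were DESeq2 1.42.0, limma 3.58.1 (voom with quality weights), DESeq2 size factors, library size alone, no filter, a floor of 10 counts in every library, females only, sex as a covariate, a replicate block, no fold threshold, each library left out, and other transcript lengths, of which the canonical one was added after seeing the data. By rule, members described by library are those with non-overlapping groups or an unadjusted p under 0.05. *Mdh2* was added after its values were seen. The members and lists were chosen with earlier results of these data known.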

Additional observations from a re-analysis of the deposited data

Results flagged for a closer look

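Of 40 values checked for a WT library far from the other 3, chance would put about 1 in 20 past the limit used, and 1 was found. *Mdh2* was at 167 CPM in WT F1, with the other WT libraries at 196 to 201 CPM, and the gap was 0.863 of the range. *Sucla2* had a log2 difference between LC3b-/- and WT of -0.19 in females and 0.02, almost none, in males. Opposite signs in the sexes were not particular to *Sucla2*. *Pdp2* was at 8.96, 10.9 and 9.32 CPM in WT females and at 10.4 and 12.3 CPM in LC3b-/- females. In the males it was at 7.92 CPM in WT and 6.91 CPM in LC3b-/-. The means of *Cs* were likewise higher in LC3b-/- females and lower in the LC3b-/- male. The difference between the sexes was not tested, with 1 male in each genotype.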

How the results depend on the processing

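Of the 33 members 24 kept their direction in all 16 alternative fits. The other 9 lay near 0: *Pdhb* was at 0.03 with library size alone, 0.00 with at least 10 counts in every library and 0.02 in females only, *Idh3g* at -0.01 with DESeq2, voom, DESeq2 size factors and no filter and at -0.04 with the replicate block, *Suclg2* at 0.01 with library size alone and 0.04 in females only, *Fh1* at 0.00 in females only, and *Me2* at 0.01 with voom, 0.03 with library size alone and with sex as a covariate, 0.00 with at least 10 counts and 0.10 with the replicate block. Without 1 library the ranges were -0.05 to 0.01 for *Pdhb*, -0.10 to 0.03 for *Dlat*, -0.11 to 0.29 for *Pdp2*, -0.01 to 0.15 for *Cs*, -0.04 to 0.03 for *Idh3g*, -0.13 to 0.04 for *Suclg2*, -0.33 to 0.08 for *Sucla2*, -0.13 to 0.03 for *Fh1* and -0.12 to 0.10 for *Me2*. The count of members called was 0 except with DESeq2 (2) and with sex as a covariate (1) and stayed at 0 without each library in turn. DESeq2 called 10.7% of all genes, and this share was not counted with sex as a covariate. The count at an unadjusted p under 0.05 was 2 to 8 without 1 library, and 5 to 9 otherwise, and the share of all genes at this limit was counted for the main fit only. The median was -0.14 to -0.05 without 1 library. Ratios without overlap numbered 5 in females only and 2 to 5 without 1 library, where fewer libraries separate more easily. Of the 10 highest levels 6 were shared with canonical lengths, an alternative chosen after seeing the data. The cause was not tested.

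With the replicate label (F1, F2, F3 or male) as a block, called members stayed at 0 and the median was -0.13. Members at an unadjusted p under 0.05 were 7 (5 lower, 2 higher), and the share of all genes at this limit was not counted in this fit. The log2 ratio of *Pdk1* to *Pdk2* differed by 0.64 and that of *Pdp1* to *Pdp2* by 0.77 within the pairs, in 3 of 3 pairs. Deviations of same-labelled libraries correlated at 0.146 (F1), 0.243 (F3) and -0.172 (males), and not every library correlated best with its own label. Deviations from the means of 4 and 3 libraries depend on each other, so these values cannot decide whether the labels pair the mice. The standard error of the members' log2 fold changes, from 0.10 to 0.24, gives the precision that 4 against 3 mice allowed.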

Other observations

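*Nnt*, the mitochondrial transhydrogenase that links NADH and NADPH, was at 6.20, 18.1, 11.7 and 18.6 CPM in the WT libraries and at 15.9, 33.9 and 26.1 CPM in the LC3b-/- ones, in the order used above. Its log2 fold change was 0.89 ± 0.41 (SE; edgeR adjusted p = 0.229). The groups overlapped. C57BL6/J mice are known to carry a deletion of exons in this gene, and the LC3b-/- strain name includes a 129 substrain. Counts by exon were not read, and the part of the strain in this difference was not tested. *Nnt* was named after its values were seen.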
